A study of Mus musculus with 2 samples.

Results

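The 7 genes described here, Lrp1, Slamf7, Itgam, Itgb2, Cd47, Sirpa and Calr, encode receptors with which a phagocyte recognises a tumor cell and the signals that a tumor cell shows to it. They were taken by their symbols from a table of 32285 genes, and all 7 were found in both libraries. The data were single-cell RNA sequencing counts from tumors of MC38, a mouse colon carcinoma cell line, grown under the skin. 1 library came from a wild-type host (Lmo7+/+) and 1 from a host in which Lmo7, a LIM domain protein, was knocked out in the whole body (Lmo7-/-), and per the study's methods for this tumor the hosts were young adult females. The implanted MC38 cells are the same line in both hosts, so the genotype is that of the host's own cells. How many mice went into each library and how the knockout allele was made were not given in the sources used here. With 1 library per genotype no test between genotypes is possible. Every interval below therefore covers counting error only, at 95%, and a difference between the libraries cannot be told apart from a difference between 2 tumors of the same genotype.

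A macrophage engulfs a living tumor cell when signals that promote eating outweigh those that forbid it. Calreticulin, encoded by Calr, is a chaperone of the endoplasmic reticulum that acts as an eat-me signal when it reaches the cell surface, where the large scavenger receptor LRP1 on the phagocyte binds it. SLAMF7 is a receptor of the signalling lymphocytic activation molecule family that works together with Mac-1, the integrin built from the αM chain (Itgam) and the β2 chain (Itgb2). The opposing signal is CD47, a surface protein present on most cells, which binds SIRPα (Sirpa) on myeloid cells and recruits the phosphatases SHP-1 and SHP-2 to restrain engulfment. RNA counts show the transcript and not the amount of protein at the surface.

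In the mm10 build the genes lay on 6 chromosomes, as placed by the GENCODE vM21 annotation. Lrp1 was at chr10:127538161-127621148 on the minus strand and Slamf7 at chr1:171632403-171653035 on the minus strand. Itgam was at chr7:128062640-128118491 and Itgb2 at chr10:77530252-77565708, both on the plus strand. Cd47 was at chr16:49800533-49915010 and Sirpa at chr2:129592835-129632228, both on the plus strand, and Calr was at chr8:84841850-84846934 on the minus strand. Lrp1 overlapped Gm16217 and Slamf7 overlapped Gm37787 on the opposite strand.

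The Calr promoter is shown because Calr followed other chaperone genes of the endoplasmic reticulum across the cell clusters (given further on). The 250 bases before its start, chr8:84846932-84847181 in GRCm38.p6 from RefSeq and printed 5′ to 3′ on the strand of the gene, held 1 copy of the endoplasmic reticulum stress response element, searched as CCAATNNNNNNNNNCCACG on both strands. The copy lay on the opposite strand, from 162 to 144 bases before the start, and is in capitals.
Calr: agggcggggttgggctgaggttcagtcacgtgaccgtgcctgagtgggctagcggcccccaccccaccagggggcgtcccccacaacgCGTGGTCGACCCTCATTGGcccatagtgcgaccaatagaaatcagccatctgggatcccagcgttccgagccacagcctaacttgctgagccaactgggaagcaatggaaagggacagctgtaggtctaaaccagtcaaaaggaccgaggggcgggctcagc
The same element is in capitals, with 20 bases on each side, in the promoters of 4 other chaperone genes, printed in the same way, and Hsp90b1 held 2 copies.
Canx (chr11:50325780-50325838): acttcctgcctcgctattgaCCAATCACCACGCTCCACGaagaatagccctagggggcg
Hspa5 (chr2:34772005-34772063): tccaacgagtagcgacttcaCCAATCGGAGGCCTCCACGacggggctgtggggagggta
Hsp90b1, same strand (chr10:86705618-86705676): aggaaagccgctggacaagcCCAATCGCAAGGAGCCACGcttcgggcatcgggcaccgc
Hsp90b1, opposite strand (chr10:86705513-86705571): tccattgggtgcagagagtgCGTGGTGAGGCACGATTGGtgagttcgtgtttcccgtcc
Pdia6 (chr12:17266471-17266529): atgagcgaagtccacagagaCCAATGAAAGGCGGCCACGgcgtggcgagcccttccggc
The element was found in 5 of 7 chaperone genes searched (Calr, Canx, Hspa5, Hsp90b1 and Pdia6, not Pdia3 or Pdia4). Of all 32851 promoters searched, each 250 bases before to 50 bases after a start, 39 (0.119%) held it. Enrichment was not tested, since the first count is of genes and the second of promoters. The chaperone genes were also a chosen set, with Pdia6, the closest to Calr in pattern, among them. The element is itself named for the endoplasmic reticulum, where these chaperones act. Of the 7 receptor and signal genes, 5 had a promoter among those searched, and Calr was the only 1 of these 5 with a match. A match describes letters in the window and is not evidence of binding.

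The libraries held 98582479 unique molecular identifiers (UMIs, each standing for 1 captured RNA molecule) in 16208 droplets called as cells for the Lmo7+/+ host and 80648345 in 15163 droplets for the Lmo7-/- host, where the labels state that about 10000 live sorted cells were loaded. After filtering, 13542 and 11860 cells remained with a median of 4535.5 and 4304.5 UMIs, and 175 cell barcodes were shared between the libraries among them. Clusters were named from marker genes as macrophage-like (3422 and 4082 cells), monocyte-like (823 and 667), tumor cell-like (6381 and 4213), T/NK-like (578 and 730), dendritic-like (310 and 201), fibroblast-like (127 and 96) and endothelial-like (97 and 73). A mast-like cluster (7 and 20 cells) was under the minimum of 50 cells, and it is not counted among the named classes below. Other clusters stayed unnamed: that led by Enpp2, Serpine2 and Col6a2 (789 and 623 cells) carried the chromosome profile of the tumor cells (r = 0.93 over 19 chromosomes), and that led by Cx3cr1, Mrc1 and Ccl12 (636 and 446 cells) carried RNA of macrophages and of tumor cells together. A raised r alone did not mark tumor cells, as T/NK-like cells were at 0.67. Their standard deviation over chromosomes was 0.058, against 0.18 in the Enpp2 cluster. The unnamed cluster led by Rrm2, Snhg1 and Cdc20 had r = 0.88 and a standard deviation of 0.25. Lmo7 RNA could not check the genotype labels, because the tumor cells carry the line's own gene and the 3′ tags may lie outside the deleted part. In endothelial-like cells, the host cells with most Lmo7, it was at 36.6 CPM (the UMIs of a gene per 1000000 UMIs of that class and library) from 18 UMIs in Lmo7+/+ and 29.1 CPM from 12 UMIs in the library labelled Lmo7-/-.

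Most of the RNA of the receptors Itgam, Slamf7, Itgb2 and Sirpa was in macrophage-like cells. Macrophage-like cells held 75.8% of all Itgam UMIs with the Lmo7+/+ host and 80.3% with the Lmo7-/- host, although they were 25.3% and 34.4% of the cells. They held 71.1% and 81.1% of Slamf7, 67.7% and 73.5% of Itgb2, and 77.3% and 81.8% of Sirpa UMIs. Over all tumor cell-like cells each of these 4 genes was at 9.55 CPM or below in either library. These tumor cell-like cells also carried macrophage markers, with 6 and 7 of 12 at 5 CPM or more and a sum over the list of 208 and 252 CPM, against 12 of 12 and 18884 and 22083 CPM in macrophage-like cells. The low receptor counts were not spread evenly over them. A state of 1396 tumor cell-like cells, led by the macrophage genes Ctss, C1qc and C1qb and with the tumor cell gene Hmga2 at 272 CPM, held 147 of the 286 Itgam UMIs of the class in Lmo7+/+ and 129 of 198 in Lmo7-/-. Itgam was at 52.0 and 56.7 CPM in this state and at 1.73 to 8.65 CPM in the other tumor states, and Itgb2 was at 53.0 and 70.7 CPM there. The part of macrophage RNA in the receptor counts of the tumor cell-like class was not tested. The tumor cell markers summed to 26.2 and 27.4 CPM in macrophage-like cells and to 312 and 400.1 CPM in tumor cell-like cells. Only 4 of these 14 markers in Lmo7+/+ and 3 in Lmo7-/- were at 5 CPM or more in tumor cell-like cells, against 2 in macrophage-like cells of either library. Among them Hmga2 was at 200 to 378 CPM and Krt14 at 26.4 to 81.5 CPM in the tumor states, so the sum rested largely on Hmga2.

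Itgam, the αM chain, was highest in monocyte-like cells at 583 CPM in Lmo7+/+ and 617 CPM in Lmo7-/-, followed by macrophage-like cells at 533 and 549 CPM. Dendritic-like cells were far below at 97.5 and 77.0 CPM, and T/NK-like cells had 25.4 and 13.9 CPM. The integrin chain thus followed the monocyte and macrophage classes in both libraries. Itgb2, the β2 chain that also pairs with other α chains in lymphocytes, reached further: it was at 724 and 953 CPM in monocyte-like cells, 566 and 799 CPM in macrophage-like cells, 422 and 523 CPM in T/NK-like cells and 420 and 542 CPM in dendritic-like cells. T/NK-like and dendritic-like cells were neighbours in this order whose counting intervals overlapped.

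Slamf7 was at 148 CPM in Lmo7+/+ and 206 CPM in Lmo7-/- dendritic-like cells and at 121 and 197 CPM in macrophage-like cells. In Lmo7+/+ the counting interval of dendritic-like cells (128 to 170 CPM) lay just above that of macrophage-like cells (117 to 126 CPM). In Lmo7-/- the intervals of these classes overlapped. Monocyte-like cells had 101 and 115 CPM and T/NK-like cells 43.8 and 45.4 CPM. Sirpa, the inhibitory receptor, led in macrophage-like cells at 249.8 and 253 CPM, with monocyte-like cells at 212 and 218 CPM and dendritic-like cells at 83.1 and 103 CPM. Both receptors were low in tumor cell-like cells, at 1.57 and 2.02 CPM for Slamf7 and 2.71 and 2.98 CPM for Sirpa.

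Lrp1 had a different distribution, because its highest level was outside the myeloid cells. Fibroblast-like cells had 395 CPM in Lmo7+/+ and 533 CPM in Lmo7-/-, from 257 and 294 UMIs. Monocyte-like cells had 156 and 170 CPM and macrophage-like cells 146 and 153 CPM. Tumor cell-like cells had 63.2 and 61.6 CPM, and because of their number they held 42.1% and 30.8% of all Lrp1 UMIs. Its tumor level did not rest on the state led by Ctss, C1qc and C1qb alone, since it was at 40.0 to 97.1 CPM in 4 other tumor states. Lrp1 was low in the remaining ones, the cycling tumor state and that led by Nrep, H19 and Igkc. T/NK-like cells, at 13.8 and 9.28 CPM, had little of it.

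The signals were widespread. Cd47 was at 527 CPM in Lmo7+/+ and 523 CPM in Lmo7-/- dendritic-like cells, at 457 and 449 CPM in T/NK-like cells and at 368 and 422 CPM in macrophage-like cells, and tumor cell-like cells, at 287 and 289.8 CPM, were below all the named immune classes in both libraries. Calr was highest in the unnamed cluster led by Enpp2, Serpine2 and Col6a2 at 2321 and 2521 CPM, and, among the named classes, in tumor cell-like cells at 1723 and 1605 CPM. Macrophage-like cells followed at 1592 CPM in Lmo7+/+, while in Lmo7-/- fibroblast-like cells, at 1225 and 1553 CPM, were above macrophage-like cells, at 1465 CPM, with intervals that overlapped those of both other classes. Calr was lowest in T/NK-like cells at 1064 and 928 CPM and dendritic-like cells at 951 and 962 CPM. The don't-eat-me transcript was thus lower, and the eat-me transcript higher, in tumor cell-like cells than in dendritic-like or T/NK-like cells of the same tumor. Levels are compared here between cell classes within 1 gene, not between genes, since CPM is not corrected for what makes 1 transcript easier to capture than another.

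**Figure D1:**
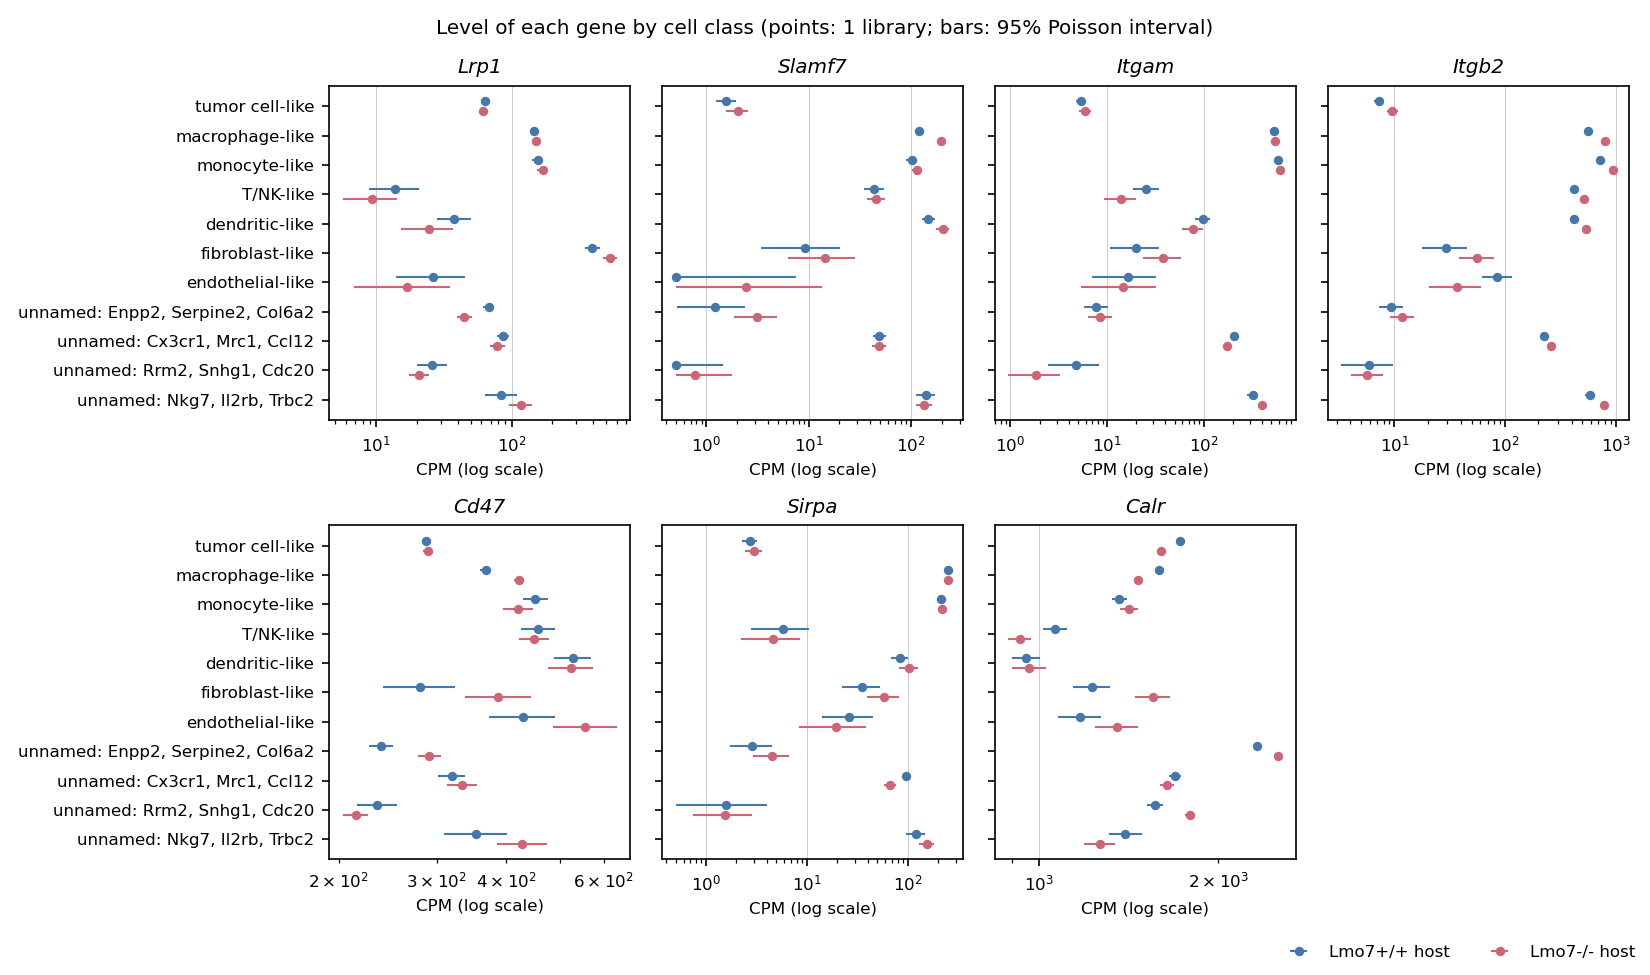
Level of each of the 7 genes (CPM, log scale) in the 7 named cell classes and 4 unnamed clusters; each point is 1 library (blue, Lmo7+/+ host; red, Lmo7-/- host) and bars are 95% Poisson intervals, with values under 0.5 CPM drawn at 0.5. Itgam, Slamf7, Itgb2 and Sirpa are low in tumor cell-like cells (at most 9.55 CPM), Lrp1 is highest in fibroblast-like cells (395 and 533 CPM), and Cd47 and Calr are present in every class.

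The libraries were then compared within macrophage-like cells, the host cells in which receptors and signals of phagocytosis meet. Of the 7 genes 1, Slamf7, was higher in the library labelled Lmo7-/- past the chosen fold of 0.5 on the log2 scale, Itgb2 lay on that limit, and the other 5 were within it. Among all 10171 genes with at least 100 counts in this class, 2.72% (277 genes) were past the fold in the higher direction and 4.82% (490 genes) in the lower direction. The median ratio over all genes was -0.10, so each ratio can also be read relative to this median, and then 4.16% (423 genes) were higher and 2.69% (274 genes) lower, with 2 of 7 of the described genes, Slamf7 and Itgb2, past the fold. Slamf7 had 2420 UMIs, 121 CPM (117 to 126), in Lmo7+/+ macrophage-like cells and 4001 UMIs, 197 CPM (191 to 203), in those of the Lmo7-/- host. The log2 ratio was 0.70 (0.62 to 0.77), and 0.79 relative to the class median. The intervals of the libraries did not overlap, and the share of cells with a Slamf7 UMI after thinning every cell to 1500 UMIs was 15.7% and 24.4%, where tumor cell-like cells gave 0.410% and 0.481%.

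Itgb2 had 11287 UMIs, 566 CPM (556 to 576), in Lmo7+/+ and 16262 UMIs, 799 CPM (787 to 812), in Lmo7-/- macrophage-like cells. Its log2 ratio of 0.498 (0.46 to 0.53) was just inside the fold, and it was 0.59 relative to the class median. At 1500 UMIs, 54.8% of cells in Lmo7+/+ and 65.1% in Lmo7-/- held an Itgb2 UMI, against 1.62% and 2.01% of tumor cell-like cells. Itgam, its partner in Mac-1, was nearly level between the libraries by CPM: 533 CPM from 10624 UMIs and 549 CPM from 11169 UMIs, a log2 ratio of 0.04 (0.00 to 0.08). Relative to the class median it was 0.14. At 1500 UMIs, 46.9% (45.1 to 48.6) of cells in Lmo7+/+ and 50.5% (48.9 to 52.1) in Lmo7-/- held an Itgam UMI, intervals that did not overlap. The 2 chains of Mac-1 therefore differed in how far apart the libraries were. In the same cells the other α chains on the list were at 870 and 964 CPM for Itgax, which makes complement receptor 4 with the β2 chain, a ratio of 0.15, and at 188 and 199.8 CPM for Itgal, which makes LFA-1, a ratio of 0.09.

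Lrp1 was at 146 CPM (141 to 152) from 2915 UMIs in Lmo7+/+ and 153 CPM (147 to 158) from 3108 UMIs in Lmo7-/- macrophage-like cells, a log2 ratio of 0.06 (-0.01 to 0.14). Its interval included 0, and its sign turned, to -0.05, when cells with any UMI of another class's markers were left out. Sirpa was at 249.8 CPM from 4982 UMIs and 253 CPM from 5147 UMIs, a ratio of 0.02 (-0.04 to 0.07), whose sign also depended on the setting. The shares of cells with a UMI at 1500 UMIs were 18.3% and 20.2% for Lrp1 and 30.6% and 30.9% for Sirpa, against 9.23% and 9.62%, and 0.895% and 0.792%, in tumor cell-like cells, and against 1.88% and 1.49%, and 1.17% and 0.745%, in T/NK-like cells. The median UMI counts per cell of these classes were 4826 and 4731 in tumor cell-like and 2155 and 2213 in T/NK-like cells. On the scale of CPM a difference in either receptor between the libraries was thus not detectable at this depth. Relative to the class median the ratios were 0.16 for Lrp1 and 0.11 for Sirpa, a shift that puts both intervals above 0, so this reading depends on the scaling.

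The 2 signals were measured in the macrophages too. Cd47 was at 368 CPM from 7330 UMIs in Lmo7+/+ and 422 CPM from 8590 UMIs in Lmo7-/- macrophage-like cells, a log2 ratio of 0.20 (0.15 to 0.25). Calr was at 1592 CPM from 31739 UMIs and 1465 CPM from 29808 UMIs, a ratio of -0.12 (-0.14 to -0.10), which was -0.02 relative to the class median. Both were inside the fold. The median UMI count per macrophage-like cell was 5344 in Lmo7+/+ and 4436.5 in Lmo7-/-, and the part of this depth in the ratios was measured by thinning: at 1500 UMIs the direction of Slamf7, Itgb2, Itgam, Lrp1, Cd47 and Calr was kept and that of Sirpa was not.

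**Figure D2:**
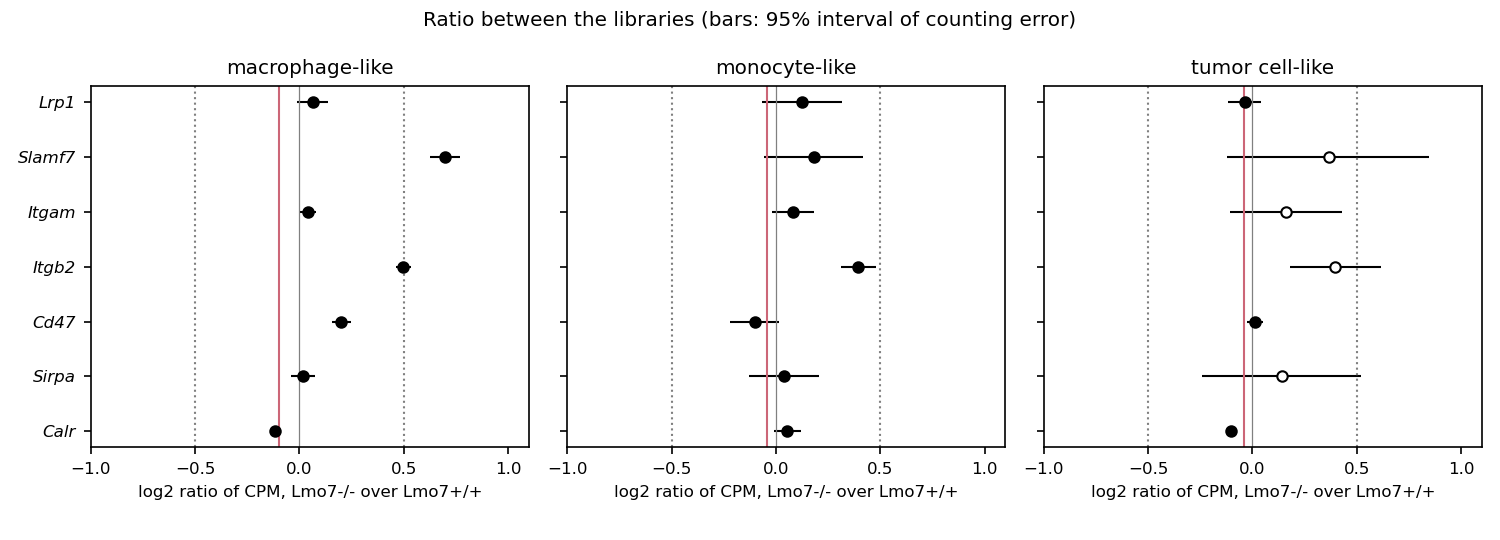
Log2 ratio of CPM, Lmo7-/- over Lmo7+/+, of the 7 genes in macrophage-like, monocyte-like and tumor cell-like cells; bars are 95% counting intervals, dotted lines the fold of 0.5, the red line the median over all genes of that class, and open points genes with a mean level under 10 CPM. Slamf7 (0.70) is past the fold and Itgb2 (0.498) on it in macrophage-like cells, and no gene is past it in monocyte-like or tumor cell-like cells.

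In monocyte-like cells 0 of the 7 genes were past the fold, where 2.78% of 6036 genes were higher and 4.52% lower (3.36% and 3.43% relative to the class median of -0.04). Itgb2 had the largest ratio of the 7, from 724 CPM in Lmo7+/+ to 953 CPM in Lmo7-/-, 0.40 (0.31 to 0.48). Slamf7 was at 101 and 115 CPM, 0.18 (-0.06 to 0.42), an interval that did not overlap the one in macrophage-like cells. The difference between these classes was not tested, and the monocyte value ran from -0.04 under a stricter filter on cells to 0.44 for the mean of per-cell CPM. The other genes lay between -0.10 for Cd47 and 0.12 for Lrp1. In dendritic-like cells Slamf7 was at 148 and 206 CPM, from 196 and 185 UMIs, a ratio of 0.48 (0.18 to 0.78) that lay between 0.48 and 0.79 under the alternatives, so on either side of the fold. The difference of Itgb2 was in the same direction in all the named immune classes, at 0.37 in dendritic-like and 0.31 (0.17 to 0.45) in T/NK-like cells, while endothelial-like cells, with 42 and 15 UMIs, went the other way at 85.4 and 36.4 CPM. In tumor cell-like cells, where most states were low in it, Itgb2 was at 7.26 and 9.55 CPM, a ratio of 0.40.

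Macrophage-like cells were divided into 8 states, which differed in their shares between the libraries, so the ratios were also taken within states. The largest state, led by H2-M2, Il18bp and Ccl5, was 67.8% Lmo7-/- cells, and the state with Cd300e and Fcrl5 was 68.5%, against 39.8% of the Ccr2 state (Ccr2 is the chemokine receptor with which monocytes enter tissue). Slamf7 was higher in the library labelled Lmo7-/- in 8 of 8 states, with ratios from 0.05 to 0.87. It was at 174 CPM in Lmo7+/+ and 318 CPM in Lmo7-/- in the state with Arg1, Mmp12 and Gpnmb, and at 170 and 302 CPM in the Cd300e Fcrl5 state, ratios of 0.87 (0.68 to 1.06) and 0.83 (0.54 to 1.12). It was at 78.2 and 129 CPM in the cycling state, 0.73 (0.56 to 0.89), and at 116 and 183 CPM in the state led by S100a6, Sparc and Sox9, 0.66 (0.30 to 1.03). In the largest state, that of H2-M2, it was at 178 and 229 CPM, 0.36 (0.23 to 0.49), inside the fold. The intervals of 3 states included 0. The ratios in these were 0.24 (-0.08 to 0.56) in the interferon state, 0.43 (-0.12 to 0.99) in the small Retnla state and 0.05 (-0.22 to 0.32) in the Ccr2 state, at 79.0 and 81.8 CPM, so the Slamf7 difference was not detectable there. The intervals of the cycling and Ccr2 states, which had like levels in Lmo7+/+, did not overlap. Weighting the states alike in both libraries brought the Slamf7 ratio from 0.70 to 0.53, still past the fold. The states were drawn from the same cells, so their ratios describe 1 pair of libraries and are not replicates.

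Itgb2 was higher in the Lmo7-/- library in 8 of 8 states, from 0.18 to 0.54, and with the same mix of states in both libraries its ratio was 0.40, inside the fold. It was highest in the Cd300e Fcrl5 state, at 922 CPM in Lmo7+/+ and 1340 CPM in Lmo7-/-, and unlike Slamf7 it was also apart in the Ccr2 state, at 505 and 676 CPM, 0.42 (0.32 to 0.52). Itgam was highest in the same Cd300e Fcrl5 state, at 960 and 972 CPM, and its ratios were higher in 3 states and lower in 5. It was at 428 and 509 CPM in the H2-M2 state, 0.25 (0.17 to 0.33), and at 707 and 646 CPM in the Arg1 Mmp12 Gpnmb state, -0.13 (-0.24 to -0.02), so the flat ratio over the class was the sum of states on both sides. Cd47 also peaked in the Cd300e Fcrl5 state, at 559 and 686 CPM, and was higher in 8 of 8 states by 0.00 to 0.36. Calr was lower in 8 of 8 states, by at most 0.22 on the log2 scale, where the median of all genes in the class was itself at -0.10.

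Lrp1 varied more between states than between libraries. In the state with Arg1, Mmp12 and Gpnmb, genes that macrophages use in arginine breakdown and in handling of matrix and lipid, it was at 273 CPM in Lmo7+/+ and 248 CPM in Lmo7-/-, and in the Cd300e Fcrl5 state at 89.1 and 98.3 CPM. In the small state led by Retnla, Saa3 and Folr2, of which Folr2 marks tissue-resident macrophages, it was at 258 and 162 CPM from 108 and 64 UMIs, a ratio of -0.68 (-1.15 to -0.22). In the largest state, that of H2-M2, it was at 162 and 187 CPM, 0.21 (0.07 to 0.34), and in the cycling state at 114 and 101 CPM, -0.17 (-0.34 to -0.01). Over the 8 states Lrp1 was higher in 4 and lower in 4, and the intervals of the other 5 states included 0. Sirpa was likewise divided, higher in 3 and lower in 5, with its highest levels, 337 and 303 CPM, in the Retnla state and its lowest, 191 and 193 CPM, in the state led by S100a6, Sparc and Sox9. That last state held tumor RNA, with the tumor cell gene Hmga2 at 66.9 CPM against 7.04 to 14.7 CPM in the other states, and the part of this RNA in its values was not tested.

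**Figure D3:**
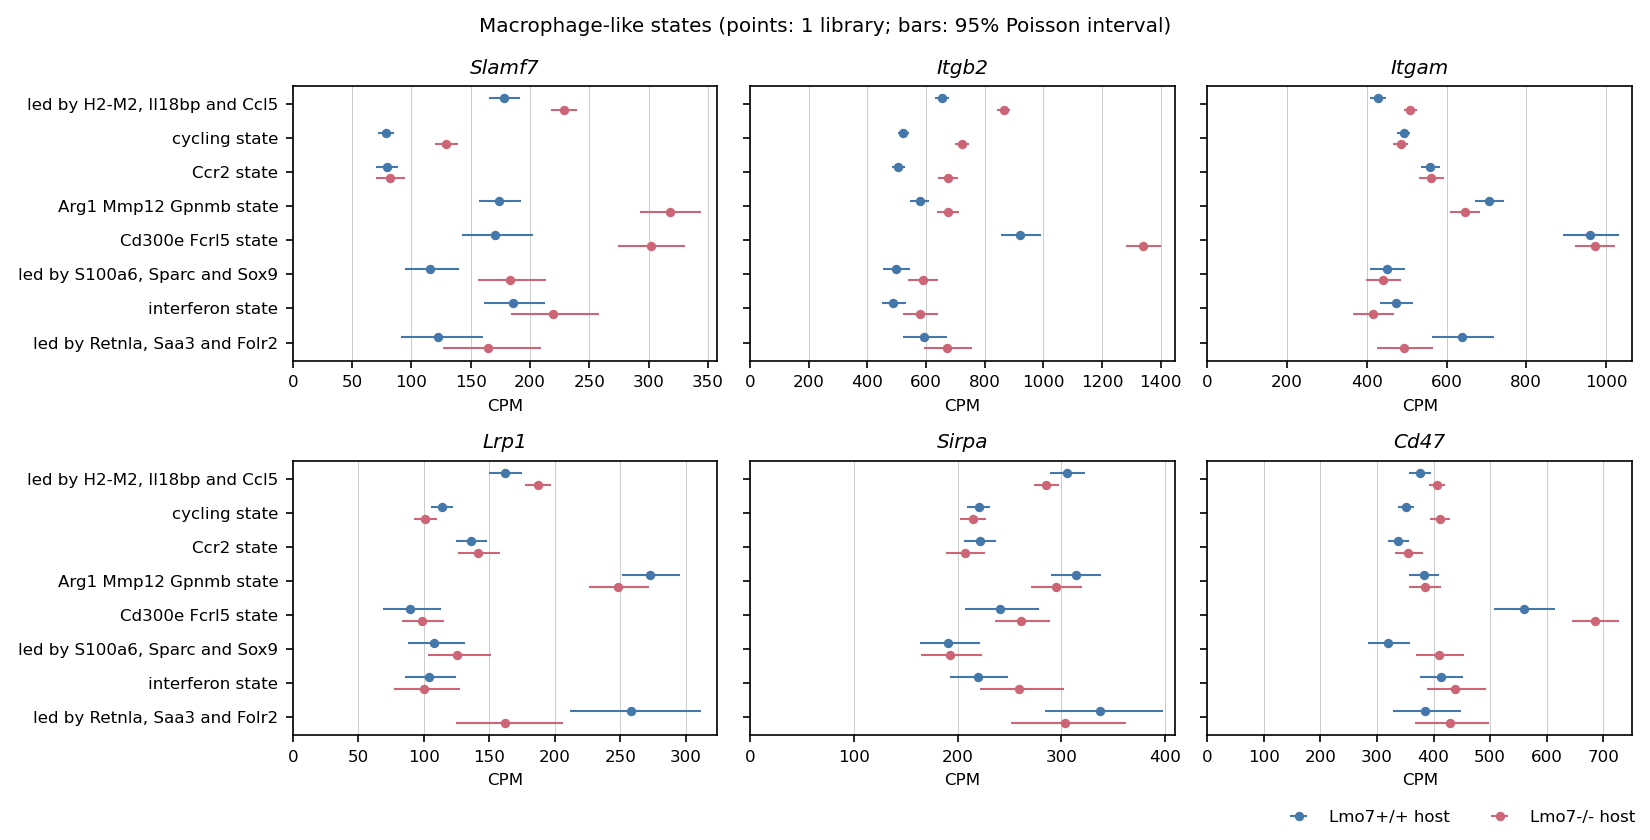
Level (CPM, linear scale) of 6 of the 7 genes in the 8 states of macrophage-like cells; each point is 1 library (blue, Lmo7+/+ host; red, Lmo7-/- host) and bars are 95% Poisson intervals. Slamf7 and Itgb2 are higher in the Lmo7-/- library in 8 of 8 states, with Slamf7 nearly level in the Ccr2 state (79.0 and 81.8 CPM), while Lrp1, Itgam and Sirpa lie on both sides.

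In tumor cell-like cells, the implanted line in both hosts, 0 of the 7 genes were past the fold, where 2.05% of 11790 genes (242) were higher and 2.11% (249) lower. Relative to the class median of -0.04 these shares were 2.49% (294 genes) and 1.65% (194 genes), again with 0 of the 7. Calr was at 1723 CPM (1712 to 1735) from 92374 UMIs in the Lmo7+/+ host and 1605 CPM (1591 to 1618) from 53260 UMIs in the Lmo7-/- host, a log2 ratio of -0.10 (-0.12 to -0.09). Cd47 was at 287 CPM from 15404 UMIs and 289.8 CPM from 9617 UMIs, 0.01 (-0.02 to 0.05). Lrp1 was at 63.2 CPM and 61.6 CPM, -0.04 (-0.12 to 0.04), and the ratio was -0.38 in the 553 and 500 cells that held no UMI of another class's markers. At 1500 UMIs, 82.9% and 80.6% of the tumor cell-like cells held a Calr UMI and 34.2% and 33.4% a Cd47 UMI. Each of these differences between the hosts was smaller than the fold, and the sign of Cd47 depended on how the cells were chosen.

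The levels of Calr and Cd47 differed between the states of tumor cell-like cells. Of the 7 states, that led by Ctss, C1qc and C1qb had the highest Calr, at 2125 CPM in Lmo7+/+ and 2151 CPM in Lmo7-/-, and the highest Lrp1, at 98.6 and 119 CPM, with Cd47 at 348 and 374 CPM. In Lmo7+/+ its Lrp1 interval overlapped that of the state led by Tnfrsf9, the next in order. Its 10 leading genes are macrophage or other leukocyte genes and its cells had a median of 1930.5 UMIs. The part of macrophage RNA in its levels was not tested. The state led by Tnfrsf9, Ero1l and Ndrg1, of which Ero1l and Ndrg1 are known for their induction by low oxygen, had Calr at 1940 CPM in Lmo7+/+ and 1735 CPM in Lmo7-/-, Cd47 at 336 and 367 CPM and Lrp1 at 93.2 and 97.1 CPM. The state led by Pclaf, Rrm2 and Mybl2, of which Pclaf and Rrm2 serve DNA replication, had Calr at 1710 and 1553 CPM. Its Cd47 was at 249 and 246 CPM and its Lrp1 at 46.2 and 40.0 CPM. Cd47 and Lrp1 were thus higher in the Tnfrsf9 state than in the Pclaf state in both libraries, with intervals that did not overlap. In 2 further states every one of these transcripts was low: Calr was at 494 and 509 CPM in a cycling state of 1026 cells and at 471 and 410 CPM in a state of 785 cells led by Nrep, H19 and Igkc, and Cd47 was at 103 and 98.9 CPM and at 108 and 136 CPM. The same states had 0.306% and 0.337% of their counts from mitochondrial genes, against 6.76% to 8.20% in the other tumor states, and a median of 2251.5 and 1799 UMIs per cell. The part of cell quality in the low levels was not tested.

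The unnamed cluster led by Enpp2, Serpine2 and Col6a2, which had the chromosome profile of the tumor cells, went the other way from the named tumor cells for Calr, a difference that was not tested. Calr was at 2321 CPM in Lmo7+/+ and 2521 CPM in Lmo7-/- there and Cd47 at 239 and 291 CPM. Lrp1 was at 67.8 and 44.8 CPM, a log2 ratio of -0.60 (-0.82 to -0.37) from 449 and 259 UMIs. Of 9233 genes in this cluster, 5.04% were higher and 8.14% lower past the fold (6.02% and 7.06% relative to its median of -0.04). The unnamed cluster led by Rrm2, Snhg1 and Cdc20, in which 68.6% of cells were from the Lmo7-/- host, had Calr at 1564 and 1793 CPM and Cd47 at 235 and 214 CPM. Adding these clusters to the tumor cells brought the Calr ratio from -0.10 to -0.03.

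**Figure D4:**
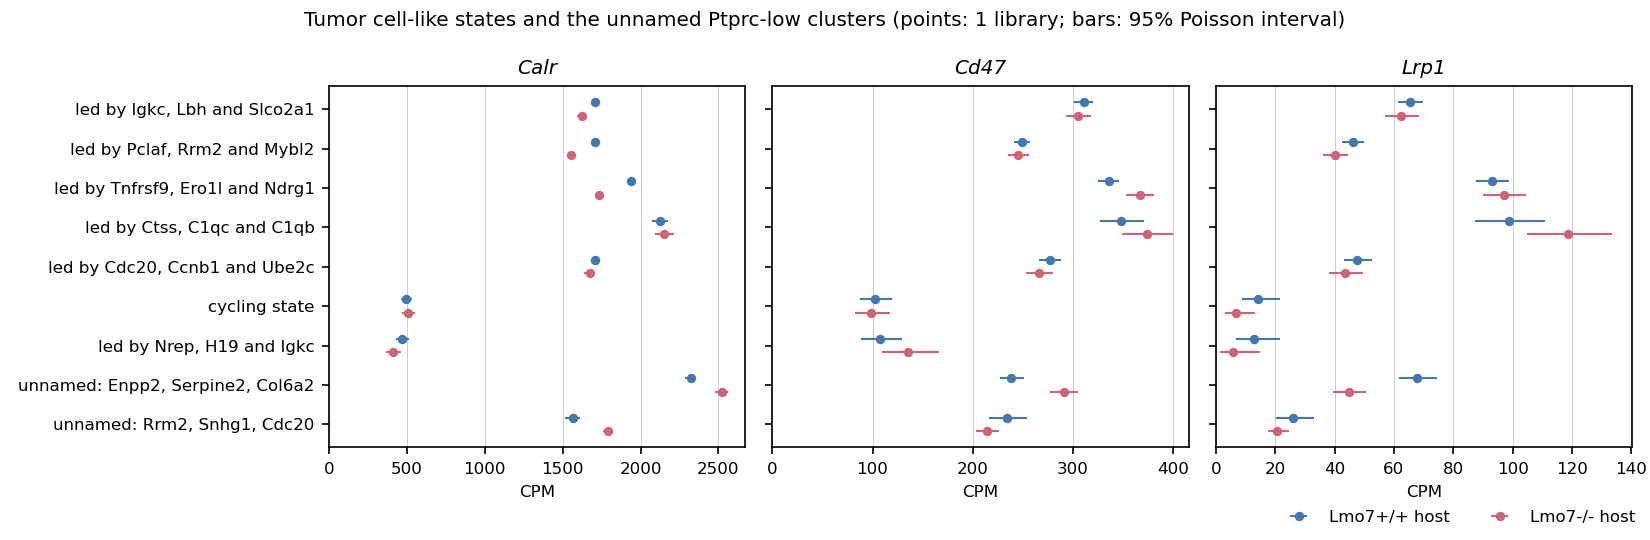
Level (CPM, linear scale) of Calr, Cd47 and Lrp1 in 7 states of tumor cell-like cells and in 2 unnamed clusters low in Ptprc, the leukocyte marker CD45; each point is 1 library (blue, Lmo7+/+ host; red, Lmo7-/- host) and bars are 95% Poisson intervals. The cycling state and the state led by Nrep, H19 and Igkc are low for all 3 genes (Calr between 410 and 509 CPM), and Calr is highest in the cluster led by Enpp2, Serpine2 and Col6a2.

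The partners of the 7 genes were then counted in 5 lists of 57 genes in all. Over all 10171 genes of macrophage-like cells 2.72% were higher and 4.82% lower past the fold, so lists this short would hold few such genes. In macrophage-like cells the list around calreticulin and LRP1 (chaperones, the LRP1 chaperone Lrpap1 and the adaptors Dab2 and Gulp1) had 10 of 11 genes with enough counts, and 0 of the 10 were past the fold in either direction, with a median ratio of -0.08 against -0.10 over all genes. Hspa5, the chaperone BiP, was at 1466 CPM in Lmo7+/+ and 1256 CPM in Lmo7-/-, a ratio of -0.22. Tapbp, which works with calreticulin in loading peptides onto class I molecules, was at 409.8 and 492 CPM, 0.26. The list around SLAMF7 and Mac-1 had 10 of 13 genes with enough counts, 0 past the fold, and a median of 0.07. Its signalling adaptors Fcer1g and Tyrobp were at 3492 and 4309 CPM, and 1429 and 1764 CPM, both a ratio of 0.30. The kinases Syk and Btk were at 0.06 and -0.09, and Sh2d1b1, which encodes the SLAM adaptor EAT-2, was at 56.2 and 61.0 CPM, 0.12. Slamf7 was thus further apart between the libraries than each of its listed partners with enough counts.

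The list around CD47 and SIRPα had 11 of 11 genes with enough counts, with a median of 0.07. Of these, 2 were past the fold, both higher in the library labelled Lmo7-/-, as 2.72% of all genes were. These were Sirpb1a, from 57.1 CPM to 86.1 CPM (0.59), an activating relative of SIRPα that lacks the inhibitory tail, and Thbs1, from 356 CPM to 507 CPM (0.51), which encodes thrombospondin-1, a further ligand of CD47. The paralogs Sirpb1b and Sirpb1c were at 0.32 and 0.31, and their near-identical sequences make the split of reads among Sirpb1 genes uncertain. Of the phosphatase genes, Ptpn6, for SHP-1, was at 322 and 294 CPM (-0.13), which is -0.03 relative to the class median and so near the level of all genes. Ptpn11, for SHP-2, was at 65.0 and 50.5 CPM (-0.37), or -0.27 relative to that median. Qpctl, the enzyme that modifies CD47 for SIRPα binding, was at 14.2 and 14.1 CPM. In monocyte-like cells Sirpb1a had the opposite direction, at 61.2 and 33.1 CPM (-0.88), and Thbs1 was at 937 and 1232 CPM (0.39).

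Among other inhibitory signals, 7 of 9 genes had enough counts in macrophage-like cells. Of these, 2 were higher and 1 lower past the fold (2.72% and 4.82% of all genes), and the median was 0.22. Cd274, which encodes PD-L1, was at 139 CPM from 2774 UMIs in Lmo7+/+ and 283 CPM from 5764 UMIs in Lmo7-/-, a ratio of 1.03. Pdcd1lg2, for PD-L2, was at 6.97 and 41.2 CPM, 2.56. Cd24a, the sialoglycoprotein that signals through Siglec-G in mice, was at 7.32 and 3.44 CPM, -1.09, and at 57.7 and 18.9 CPM in monocyte-like cells, -1.61. B2m, the class I subunit through which LILRB receptors restrain macrophages, was at 4997 and 6275 CPM, 0.33, inside the fold. Cd274 was also apart in monocyte-like cells, at 183 and 308 CPM (0.75), and in tumor cell-like cells, at 13.0 and 28.6 CPM (1.13), where the summed macrophage markers were at 208 and 252 CPM.

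The machinery that shapes the phagocytic cup, with the Rac GTPases, their exchange factors and the Arp2/3 complex, had 13 of 13 genes with enough counts in macrophage-like cells and 0 past the fold, with a median of -0.07. Over all genes of the class 2.72% were higher and 4.82% lower past the fold. Rac2 was at 400.2 and 469.8 CPM (0.23), Elmo1 at 104 and 79.4 CPM (-0.38) and Coro1a at 744 and 599 CPM (-0.31). In tumor cell-like cells 0 of 11 genes of the calreticulin list and 0 of 9 of the CD47 list with enough counts were past the fold. Over all genes of that class 2.05% were higher and 2.11% lower past the fold. The other genes that passed it there were at low levels: Itgal at 2.26 and 4.49 CPM was higher, and Icam1, Was and Myo1f, each at 2.07 CPM or below, were lower, of which Was alone stayed past the fold relative to the class median. In monocyte-like cells Sh2d1b1 and Sirpb1a were lower and the other genes of the 3 axis lists were within the fold. Over all genes of that class 2.78% were higher and 4.52% lower.

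**Figure D5:**
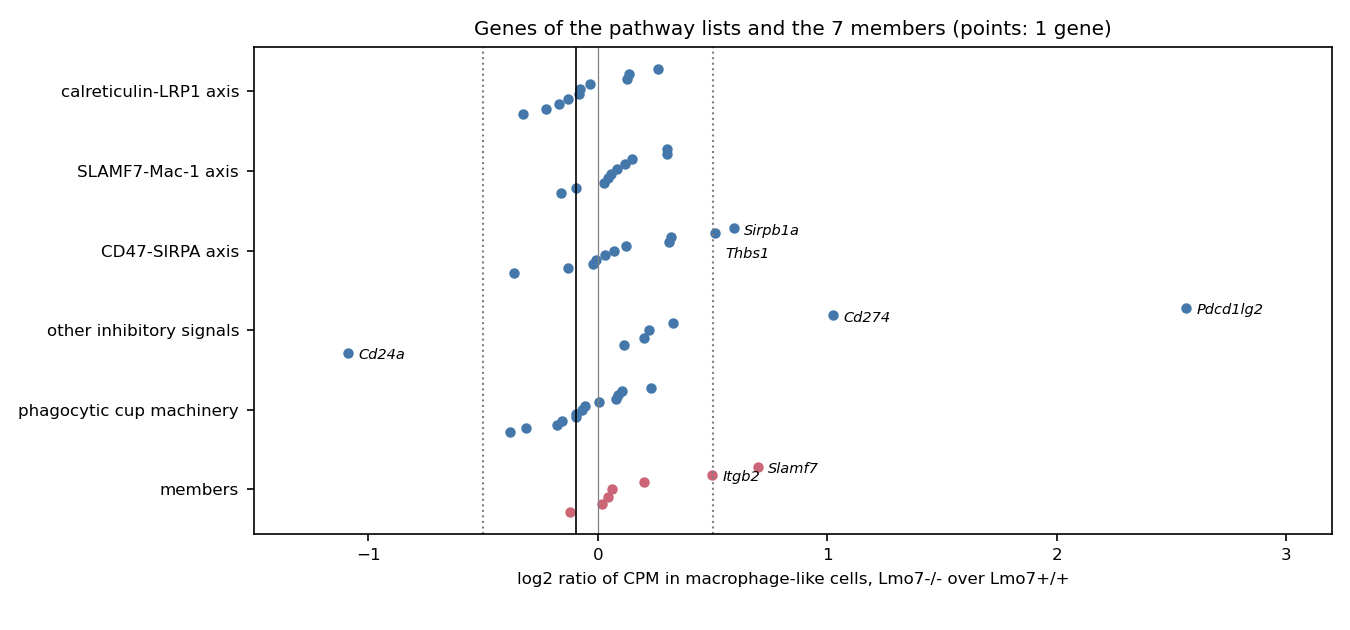
Log2 ratio of CPM in macrophage-like cells, Lmo7-/- over Lmo7+/+, of the genes in the 5 pathway lists (blue) and the 7 described genes (red, labelled members); each point is 1 gene with at least 100 counts, dotted lines mark the fold of 0.5 and the black line the median over all genes. Sirpb1a, Thbs1, Cd274 and Pdcd1lg2 lie above the fold and Cd24a below it, as Slamf7 does above among the 7 genes.

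Genes with a pattern most like each of the 7 were sought among 6456 genes over 15 clusters, by Pearson's correlation of log2(CPM + 10) with both libraries summed. The points share libraries and the clustering used many of these genes, so the values are descriptive. Calr was followed most closely by Pdia6 (r = 0.97), Pdia4 (0.96) and Hsp90b1 (0.96), all chaperones or disulfide isomerases of the endoplasmic reticulum, and of these 3 Pdia6 and Hsp90b1 carry the element printed above. Itgam was followed by the Fc receptor gene Fcgr3 (0.997), Il1rn and the scavenger receptor gene Msr1. Sirpa was followed by Milr1 (0.99), an inhibitory receptor gene, then Csf1r, the receptor of macrophage colony-stimulating factor, and Cybb. Itgb2 was followed by Laptm5 (0.996), Ucp2 and Ptpn6, genes shared by many leukocytes, and Slamf7 by Acss1 (0.99), Tent5c and Nckap1l. Lrp1 and Cd47 had less close partners, Nucb2 (0.92) and Lrp10 (0.93). Among the 7 genes themselves Itgam and Sirpa were the closest pair (0.97), then Slamf7 and Itgb2 (0.94), while Calr was at -0.15 with Slamf7 and -0.17 with Itgb2.

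Within single macrophage-like cells thinned to 1500 UMIs the genes were found together about as often as their separate shares give. Itgam and Itgb2 were both found in 26.2% of Lmo7+/+ cells, where the product of the shares was 25.7%, and in 34.1% of Lmo7-/- cells, where it was 32.9%. Slamf7 and Itgam were both found in 7.44% of Lmo7+/+ cells (product 7.36%) and 13.0% of Lmo7-/- cells (12.3%). Cells in which the transcripts of SLAMF7 and of the αM chain were both captured were thus a larger share in the Lmo7-/- library. The separate shares were also larger there, 15.7% and 24.4% for Slamf7 and 46.9% and 50.5% for Itgam. Lrp1 and Sirpa, the receptors with opposite roles, were found together in 6.17% (5.59%) and 7.15% (6.25%) of cells. In tumor cell-like cells Calr and Cd47 were both found in 1607 of 5362 Lmo7+/+ cells, where the product was 28.3%, and in 28.5% of Lmo7-/- cells (26.9%), so capture of the eat-me transcript and of the don't-eat-me transcript was not exclusive.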

How the data were processed

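Cell suspensions of MC38 tumors were sorted for live cells, captured with 10x Genomics droplets, 1 library per genotype, and the libraries were pooled before sequencing. The authors deposited raw UMI counts per gene and droplet, and the submitters' processing notes name Cell Ranger 2.1.1 and mm10. Sorting and capture set which cells were seen, so shares of cells are shares of sorted cells. Droplets under 500 detected genes, under 1000 UMIs or over 15% of UMIs from mitochondrial genes were left out. Clusters were built on 2000 variable genes, 30 components and 20 neighbours at resolution 0.5 (scikit-learn 1.9.0, python-igraph 0.11.9), leaving out the 7 genes and the 5 lists. They were named from marker lists by a scoring rule set after the data were seen, so cell class names may differ from the study's. Scrublet, run through scanpy 1.11.5, marked 2.90% and 2.60% of cells as doublets, which were kept. Counts were summed per class and library. CPM carries an exact Poisson interval, shares an exact binomial interval, and the log2 ratio the exact binomial interval of the split of counts, all at 95%, computed with scipy 1.17.1 and for counting error only. Genes needed 100 counts over both libraries for a ratio. edgeR 4.0.16 gave library size factors for 1 alternative and no test. The ratios and intervals were checked on simulated counts. The text names the 7 genes, list genes past the fold and direct partners, and for likeness the leading genes among those with at least 200 counts and a highest level of 50 CPM. The 7 genes, the lists and the rules were chosen with earlier results of these data known. Gene positions are from GENCODE vM21, in which 32235 of 32285 gene identifiers were found, and promoters from RefSeq (GRCm38.p6). Alternatives were other filters, clustering, library sizes and cell choices.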

Additional observations from a re-analysis of the deposited data

Results flagged for a closer look

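By CPM, Lrp1, the calreticulin receptor, was apart between the libraries in opposite directions in 2 groups of cells that make matrix. In the unnamed cluster led by Enpp2, Serpine2 and Col6a2, which had the tumor chromosome profile, it was at 67.8 CPM in Lmo7+/+ and 44.8 CPM in the library labelled Lmo7-/-, a log2 ratio of -0.60, and in fibroblast-like cells at 395 and 533 CPM, a ratio of 0.43 from 257 and 294 UMIs. The gap between the ratios was -1.03. It drew attention because the single pair of libraries moved one way in 1 group and the other way in the other, and the difference was not tested, since each group had 1 library per genotype.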

How the results depend on the processing

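Depth and the single library per genotype limit these values: the intervals cover counting error only, and no setting can measure the spread between tumors. No paired analysis was possible because each genotype had 1 library. Of the ratios in macrophage-like cells, Slamf7 stayed past the fold of 0.5 in 14 of 14 alternatives (0.53 to 0.79) and Itgb2 was past it in 9 of 14 (0.40 to 0.59), while Lrp1, Itgam and Sirpa stayed within it in all. The sign of Lrp1 turned in 1 of 14 alternatives, that of Sirpa in 3 of 14 and, in tumor cell-like cells, that of Cd47 in 5 of 14. Leaving out the barcodes found in both libraries moved none of the ratios beyond their intervals. Resolution 0.2 gave no tumor cell-like class and so no value for it. No result with a fold call changed to the other side of 0 past the fold.

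In macrophage-like cells, TMM library sizes gave 0.16 for Lrp1, 0.79 for Slamf7, 0.14 for Itgam, 0.59 for Itgb2 and 0.12 for Sirpa, with 423 genes higher and 274 lower. Values relative to the class median, an alternative added after the data were seen, were 0.16, 0.79, 0.14, 0.59 and 0.11, with the same counts of 423 and 274, so the split of all calls between higher and lower depends on this scaling. With the same mix of states in both libraries, also added, Slamf7 was at 0.53, Itgb2 at 0.40 and Sirpa at -0.053. Cells with no UMI of another class, 1260 of 3422 and 1466 of 4082, gave -0.049 for Lrp1, 0.11 for Itgam, 0.54 for Itgb2 and 0.12 for Sirpa. Thinning to 1500 UMIs gave 0.13 for Itgam and -0.041 for Sirpa, and the mean of per-cell CPM 0.082 for Itgam. The lenient filter gave 0.61 for Slamf7 and 0.54 for Itgb2, and removing doublets 0.54 for Itgb2. With genes of at least 20 counts, 588 were higher and 964 lower.

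In tumor cell-like cells, the strict filter gave -0.059 for Cd47 and -0.070 for Calr, and resolution 1.0 gave -0.046 for both. Cells with no UMI of another class, 553 of 6381 and 500 of 4213, gave -0.17 for Cd47, -0.076 for Calr and 131 genes higher. For Calr, TMM gave -0.068, the mean of per-cell CPM -0.14, thinning -0.14 and the inclusion of all clusters low in Ptprc with the tumor chromosome profile, added after the data were seen, -0.026. Relative to the class median Cd47 was at 0.053 and Calr at -0.061. The mean of per-cell CPM gave 437 genes lower, and genes of at least 20 counts 616 higher and 728 lower. The cause of each shift was not tested, apart from the counts with a lower minimum, where more genes were compared.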
